A study of Mus musculus with 6 samples.

Results

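NRF2, encoded by Nfe2l2, and 9 genes it is known to drive outside the glutathione transferase family were examined in the livers of 6 mice. The 10 genes were chosen by symbol from the 20107 genes of the deposited count table: Nfe2l2, Nqo1, Gclc, Gclm, Hmox1, Srxn1, Txnrd1, Gsr, Ugdh and Ephx1. Each symbol matched 1 row, and all 10 genes passed the filter on low counts. The mice were wild-type C57BL/6N males from Envigo, littermates sampled at 16 weeks of age. From 8 weeks of age and for 8 weeks, 3 of them ate an HFHC diet, a fructose-containing food high in fat and calories with a fructose-rich drink (replicates 1, 2 and 3), and the other 3 (replicates 7, 8 and 9) ate chow. No transgene or drug was used, and total RNA of whole liver was sequenced after removal of ribosomal RNA.

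NRF2 is a transcription factor that the adaptor KEAP1 holds in the cytoplasm and passes to a ubiquitin ligase. When electrophiles or oxidants modify KEAP1, NRF2 escapes breakdown, pairs with a small MAF protein and binds antioxidant response elements beside genes of glutathione synthesis, thioredoxin recycling, quinone reduction and detoxification. Control is thus largely at the level of the protein, so the mRNA of Nfe2l2 is not a measure of NRF2 activity. In liver these genes are known for the defence against reactive drug metabolites, and several, Ephx1 and Ugdh among them, also answer to the xenobiotic receptor CAR.

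Because these genes are grouped by their response to 1 factor, the stretches that match the core of its element, TGACNNNGC, are shown. They come from the RefSeq promoter windows (GRCm38, the assembly also called mm10), each of which runs from 250 bases before a gene's start to 50 after it, and both strands were searched. The match is in capitals with 10 bases on either side in lower case, and each is printed 5′ to 3′ on the strand that carries the core.
Nfe2l2: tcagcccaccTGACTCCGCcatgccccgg
Gclm: tcgtgagagtTGACGGTGCgcccgggagc
Srxn1: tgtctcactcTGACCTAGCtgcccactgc
Txnrd1: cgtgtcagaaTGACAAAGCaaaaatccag
Ugdh, distal: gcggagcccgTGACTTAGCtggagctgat
Ugdh, proximal: ccgaactgtaTGACCACGCcccttgagga

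The Nfe2l2 match begins at position -240 from the start (chr2:75704895-75704903), and that of Gclm at position -134 (chr3:122245423-122245431). In Srxn1 the match lies at positions 28 to 36 after the start (chr2:152105552-152105560). Txnrd1 has 3 windows and a match in 1 of them (chr10:82859114-82859122). The matches of Ugdh lie at chr5:65435966-65435974 and chr5:65435928-65435936, and the proximal one overlaps a match to GCGTG, the core to which the AHR receptor binds. Windows were found for 7 of the 10 genes, all but Gclc, Hmox1 and Gsr. Of the 7, 5 held the antioxidant core, against 16.6% of the 12614 genes of the table that had a window, and 4 held GCGTG, against 51.3%. Per window, the antioxidant core was in 5 of the 9 windows of these genes and in 12.4% of all 32851. GCGTG was in 6 of the 9 and in 32.4% of all. The genes were chosen as NRF2 and its known targets, and the shares were not tested. Such a match is a description of the letters and not a measured binding site.

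Neither core was found in the windows of Nqo1 and Ephx1, which says only that these letters are absent from 300 bases. Since Ephx1 was the single member called between the diets, the 250 bases before its RefSeq start are given (chr1:181017570-181017819, minus strand). No exon of GENCODE M21 covers them, although they lie within the span that GENCODE gives the gene.
Ephx1: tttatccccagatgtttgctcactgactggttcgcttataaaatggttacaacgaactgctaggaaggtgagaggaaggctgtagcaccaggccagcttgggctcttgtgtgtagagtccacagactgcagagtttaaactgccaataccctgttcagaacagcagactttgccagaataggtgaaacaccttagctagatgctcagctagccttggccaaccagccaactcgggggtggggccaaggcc

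The HFHC libraries held 30096378 to 30871262 counts and the Chow libraries 26767415 to 27339613, so depth was higher in every HFHC library (exact two-sided permutation test, p = 0.1, the smallest that 3 against 3 allow). Levels are CPM, a gene's counts scaled to the library's total after TMM, a correction for composition, so depth itself is divided out. Chow replicate 8 stood apart from the other Chow livers on the second principal component (-30.4 against 11.2 and 11.9), and the results that follow give its effect where it changed a call. The summed level of 10 hepatocyte markers (84142 to 104641 CPM in Chow, 89545 to 91480 CPM in HFHC) overlapped between the diets, and 3 of the 10 were called lower. An unadjusted p under 0.05 in edgeR was found for 6 of the 10, against 22.2% of all genes, and the list's median log2 fold change was -0.27. The marker lists of sinusoidal endothelial, stellate and bile duct cells and recruited macrophages had 26 tested entries, with Spp1 under both of the last. Of these entries edgeR called none, with 2 at an unadjusted p under 0.05, while DESeq2 called 1 of 28. Without Chow replicate 8, 1 stellate marker was called lower by edgeR. Without HFHC replicate 3, 1 stellate and 1 recruited macrophage marker were called higher, as was 1 recruited macrophage marker without Chow replicate 7. Of 5 erythroid markers 1 was called higher, the hemoglobin gene Hba-a1 (0.37 ± 0.08, adjusted p = 0.0278; not called when any single library but Chow replicate 8 was left out), whose near-identical copy Hba-a2 makes its level uncertain. All 5 had positive log2 fold changes (median 0.18), with overlapping summed levels of 272 to 321 CPM in HFHC and 255 to 279 CPM in Chow. In whole liver, fewer cells of a type and less RNA per cell cannot be told apart.

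The comparison of HFHC with Chow asks how the diet changes hepatic gene expression. Of the 10 genes, Ephx1 fell, no gene rose and 9 did not pass edgeR's quasi-likelihood test at an adjusted p under 0.05, with Benjamini-Hochberg adjustment over all 14896 genes tested. Over all genes 6.67% were called, 3.38% higher and 3.3% lower. An unadjusted p under 0.05 was found for 4 of the 10 genes and for 22.2% of all genes. The libraries of the diets did not overlap in 4 of the 10, where Nfe2l2 was higher and Gclm, Gsr and Ephx1 were lower, and in 27.8% of all genes. Log2 fold changes of HFHC over Chow ran from -0.58 to 0.31, with a median of -0.09 beside 0.00 over all genes. Their median size was 0.21, against 0.16 over all genes and 0.62 over the called genes.

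**Figure D1:**
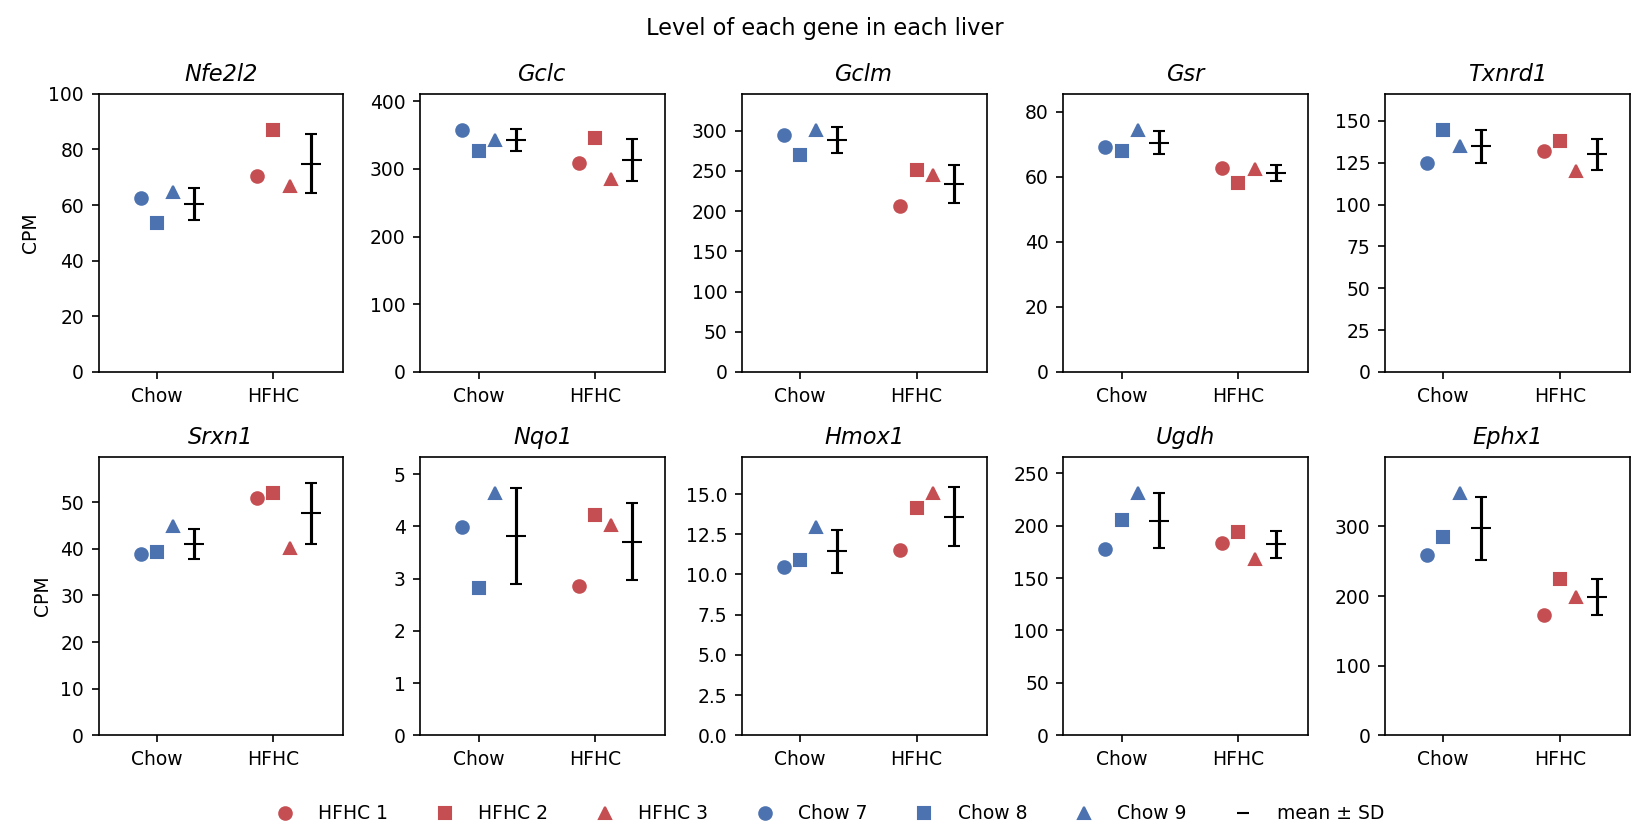
Level of each of the 10 genes in CPM (vertical axis from 0) in the 3 Chow livers (blue) and the 3 HFHC livers (red), with the mean ± SD of each diet in black. The diets are apart in Nfe2l2, Gclm, Gsr and Ephx1 and overlap in the other 6 genes.

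Ephx1 encodes microsomal epoxide hydrolase, which opens reactive epoxides of drugs and aromatic compounds by adding water. It stood at 173, 224 and 198 CPM in HFHC replicates 1, 2 and 3, and at 259, 285 and 348 CPM in Chow replicates 7, 8 and 9. Every HFHC liver was below every Chow liver, and the highest and lowest values were Chow replicate 9 and HFHC replicate 1. The means were 198 ± 25.5 and 297 ± 45.8 CPM (SD, n = 3 per diet). The log2 fold change was -0.58 ± 0.13 (SE, adjusted p = 0.0297), so that its level fell by 33.2%, with a 95% interval of 0.546 to 0.817 times Chow.

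The call of Ephx1 was lost without HFHC replicate 1 (-0.49, adjusted p = 0.0996), HFHC replicate 3 (-0.58, 0.0798) or Chow replicate 9 (-0.45, 0.0889), and kept without Chow replicate 8 (-0.61, 0.0378). It was also lost when a clock index entered the fit as covariate (-0.64, adjusted p = 0.330), a fit that called 65 of all tested genes, against 994 without the index. That index, which sets Per2, Per3 and Dbp against Arntl, Npas2 and Clock, was 0.46, 1.18 and 1.45 in the HFHC livers. In Chow replicates 7, 8 and 9 it was -2.07, 0.50 and -1.53. The diets overlapped in it only through Chow replicate 8, the library apart on the second principal component. Diet and index can thus hardly be told apart in this fit, and a dependence on the clock was not tested. The gene lies on chromosome 1 at 180976210 to 181020904 (mm10, minus strand). Its counts were not whole in any library and 3.69% of its exonic bases are shared with a gene on the same strand, so its level is uncertain by the reads that the counting divided.

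By the rule on likeness, the genes of at least 5 CPM whose log2 CPM followed that of Ephx1 most closely over the 6 libraries were Bdp1 (Pearson r = 0.991), Prpf4b (0.991) and Cstf3 (0.987), out of 9127 genes compared. Bdp1 encodes a subunit of the RNA polymerase III factor TFIIIB, Prpf4b a kinase of the spliceosome and Cstf3 a factor of mRNA 3′ end cleavage. None of the 3 was called (log2 fold changes of -0.34, -0.16 and -0.28 with adjusted p of 0.0568, 0.254 and 0.131). The 6 points share the diet difference, and r is a description of these libraries.

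Nfe2l2, the factor itself, had 70.5, 87.0 and 67.0 CPM in the HFHC livers and 62.6, 53.6 and 64.7 CPM in the Chow livers. The lowest HFHC value lay just above the highest Chow value. The difference of 0.31 ± 0.12 on the log2 scale did not pass (adjusted p = 0.148), and its 95% interval ran from 1.04 to 1.49 times the Chow level. Without HFHC replicate 2, the highest library, it was 0.19 (adjusted p = 0.336). Its promoter window is among those with the antioxidant core shown above. The gene lies on chromosome 2 at 75675513 to 75704641 (minus strand), and all its counts were whole.

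**Figure D2:**
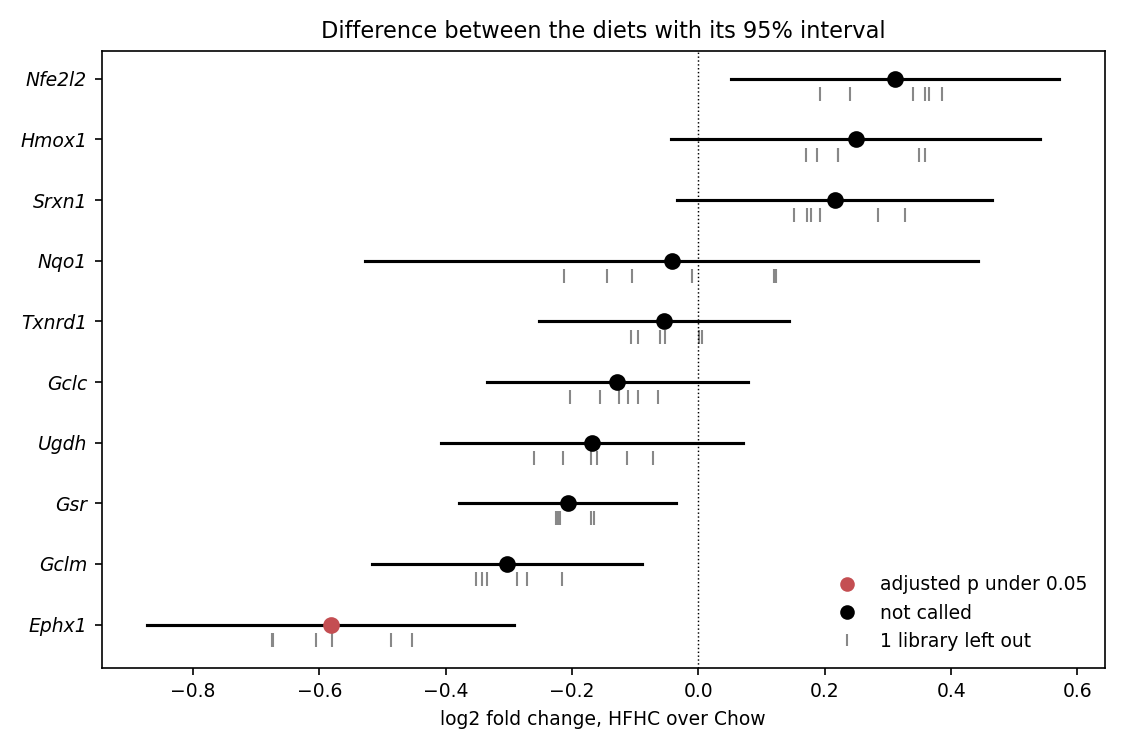
Log2 fold change of HFHC over Chow (horizontal axis) for each of the 10 genes, with the 95% interval as a line and the 6 values obtained by leaving out 1 library as grey ticks. Ephx1 (-0.58) is the called gene, the interval of Nqo1 is the widest, and the ticks of Nqo1 and Txnrd1 lie on both sides of 0.

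Glutathione is made in 2 steps, of which the first, catalysed by glutamate-cysteine ligase, sets the rate. Gclc encodes the catalytic subunit of that ligase and Gclm the modifier subunit that raises its affinity for glutamate. Gclc had 308, 346 and 285 CPM in HFHC and 358, 326 and 343 CPM in Chow. These ranges overlapped, and the difference did not pass (-0.13 ± 0.09, adjusted p = 0.465, 95% interval 0.793 to 1.06 times Chow).

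Gclm had 207, 251 and 244 CPM in HFHC and 295, 270 and 301 CPM in Chow, with no overlap. Its log2 fold change of -0.30 ± 0.10 did not pass (adjusted p = 0.0945, 95% interval 0.699 to 0.940 times Chow). It passed with limma-voom and sample weights (-0.37, adjusted p = 0.0340), and after the trends on GC content and length were removed per library it was -0.17 (adjusted p = 0.267). Counts of Gclm were not whole in any library, and other genes share 3.88% of its exonic bases on the same strand and 4.71% on the opposite one. Gclc lies on chromosome 9 at 77754535 to 77794485 and Gclm on chromosome 3 at 122245557 to 122270732, both on the plus strand.

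Per kilobase of exon, the catalytic subunit was the more abundant of the pair. The ratio of Gclc to Gclm, each as CPM per kilobase, was 2.49, 2.31 and 1.95 in HFHC and 2.03, 2.02 and 1.91 in Chow. HFHC replicates 1 and 2 were above all Chow livers, and HFHC replicate 3 lay among them. The means were 2.25 ± 0.28 and 1.98 ± 0.07 (SD, n = 3), a difference of 0.266 that did not pass an exact two-sided permutation test (p = 0.3, and 0.65 adjusted over the 13 library measures tested), which could not go below p = 0.1. Without HFHC replicate 1 the difference was 0.145, and without HFHC replicate 3 it was 0.416.

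Gsr encodes glutathione reductase, which returns oxidised glutathione to its reduced form with NADPH. It had 62.6, 58.2 and 62.5 CPM in HFHC and 69.1, 68.0 and 74.5 CPM in Chow, with no overlap. Its coefficient of variation was 4.07% in HFHC, the smallest of the 10 genes there, and 4.94% in Chow. The log2 fold change of -0.21 ± 0.08 did not pass (adjusted p = 0.147, 95% interval 0.769 to 0.976 times Chow). The gene lies on chromosome 8 at 33652523 to 33698163 on the plus strand.

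Txnrd1 encodes the cytosolic thioredoxin reductase, a selenoprotein that uses NADPH to reduce thioredoxin. It had 132, 138 and 120 CPM in HFHC and 125, 145 and 135 CPM in Chow, and the ranges overlapped. The log2 fold change was -0.05 ± 0.09 (adjusted p = 0.775), with a 95% interval of 0.840 to 1.10 times Chow. It was 0.01 without Chow replicate 8 and 0.00 without HFHC replicate 3. Txnrd1 lies on chromosome 10 at 82833951 to 82897712 on the plus strand, and its counts were not whole in any library.

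Srxn1 encodes sulfiredoxin, which reactivates over-oxidised peroxiredoxins. HFHC replicates 1 and 2 were at 50.8 and 51.9 CPM, above all Chow livers at 38.9, 39.3 and 44.8 CPM, while HFHC replicate 3 was at 40.1 CPM and within the Chow range. The log2 fold change was 0.22 ± 0.11 (adjusted p = 0.292, 95% interval 0.977 to 1.38 times Chow), and without HFHC replicate 3 it was 0.33 (adjusted p = 0.0798). The gene lies on chromosome 2 at 152105516 to 152111376 on the plus strand.

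Nqo1 encodes the NAD(P)H quinone dehydrogenase, the gene most often read as a marker of NRF2 activity. It was the least abundant of the 10, with 78 to 132 counts per library. The levels were 2.86, 4.23 and 4.02 CPM in HFHC and 3.98, 2.83 and 4.64 CPM in Chow, so the diets overlapped over nearly their whole range. The log2 fold change was -0.04 ± 0.22 (adjusted p = 0.936), and the 95% interval of 0.694 to 1.36 times Chow was the widest of the 10. Its sign turned without HFHC replicate 1 or Chow replicate 9 (0.12 in each) and with the clock index (0.25). It lies on chromosome 8 at 107388225 to 107403206 on the minus strand.

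Hmox1 encodes heme oxygenase 1, which splits heme and is highly expressed by macrophages that take up red cells. It had 11.5, 14.2 and 15.1 CPM in HFHC and 10.4, 10.9 and 13.0 CPM in Chow, and HFHC replicate 1 lay within the Chow range. The log2 fold change was 0.25 ± 0.13 (adjusted p = 0.300, 95% interval 0.971 to 1.45 times Chow). The summed level of 11 Kupffer cell markers was 353 to 430 CPM in HFHC and 308 to 356 CPM in Chow. None of the 11 was called by edgeR, DESeq2 or limma-voom. In edgeR 5 of the 11 had an unadjusted p under 0.05, against 22.2% of all genes. Their list had a median log2 fold change of 0.20, with 3 of the 11 negative. HFHC replicate 3 was the highest library in both Hmox1 and that sum. Chow replicate 7, the highest Chow liver in the sum (356 CPM, above HFHC replicate 2 at 353 CPM), was the lowest library in Hmox1. The part of these cells in the Hmox1 level was not tested. Hmox1 lies on chromosome 8 at 75093621 to 75100589 on the plus strand.

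Ugdh encodes UDP-glucose dehydrogenase, which makes the UDP-glucuronate consumed by glucuronidation. Its levels were 184, 194 and 168 CPM in HFHC and 178, 205 and 231 CPM in Chow. The ranges overlapped, and the log2 fold change of -0.17 ± 0.11 did not pass (adjusted p = 0.401, 95% interval 0.754 to 1.05 times Chow). After removal of the GC and length trends it was -0.03. The gene lies on chromosome 5 at 65413221 to 65435949 on the minus strand, its counts were not whole in any library, and 2.34% of its exonic bases are shared with a gene on the same strand.

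Among the 9 genes that were not called, the highest upper bound was 1.49 times Chow, in Nfe2l2, and the lowest lower bound was the 0.694 of Nqo1. Both bounds belong to the TMM fit without covariates. The Nfe2l2 estimate was 0.34 on the log2 scale with upper-quartile factors, 0.49 with the clock index and 0.19 without HFHC replicate 2. Such shifts would move its upper bound to either side of 1.5-fold. The bounds are from single-gene intervals, not adjusted for the number of genes. The p-values of edgeR set each difference against the spread between 3 animals per diet, estimated with the help of the other tested genes.

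**Figure D3:**
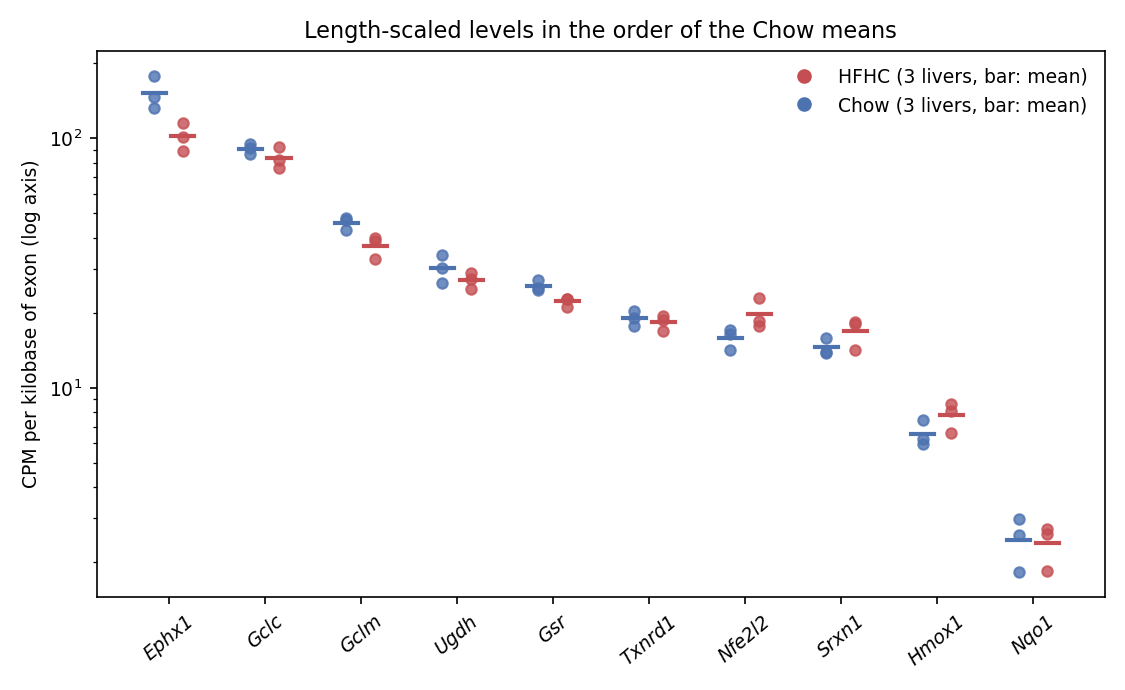
CPM per kilobase of exon (vertical log axis) for the 10 genes in each Chow liver (blue) and HFHC liver (red), ordered by the Chow mean, with bars at the means. Ephx1 and Gclc lead in both diets, and Hmox1 and Nqo1 come last.

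Levels of different genes were compared per kilobase of exon, over the union of GENCODE M21 exons, which understates genes whose liver transcripts use few of them. In Chow the order was Ephx1 (152 ± 23.5 CPM per kilobase), Gclc (90.9 ± 4.21), Gclm (45.9 ± 2.61), Ugdh (30.3 ± 3.92), Gsr (25.6 ± 1.26), Txnrd1 (19.0 ± 1.39), Nfe2l2 (15.9 ± 1.55), Srxn1 (14.5 ± 1.17), Hmox1 (6.53 ± 0.77) and Nqo1 (2.46 ± 0.59). Of these neighbours Ugdh and Gsr, and Nfe2l2 and Srxn1, overlapped between livers. In HFHC the means of Nfe2l2 (19.7 ± 2.82) and Txnrd1 (18.3 ± 1.28) stood in the reverse order, with overlapping livers. Ephx1 (102 ± 13.1) and Gclc (83.2 ± 8.16), which were apart in Chow, overlapped there, as did Gsr and Nfe2l2, and Txnrd1 and Srxn1. Ugdh and Gsr were apart in HFHC.

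The genes around these 10 were read from lists that follow their roles. Of 16 regulators of NRF2, none was called by edgeR, DESeq2 or limma-voom, 1 had an unadjusted p under 0.05, and the median log2 fold change was -0.02. The member with the smallest p was Nfe2l1, a related factor of the proteasome and stress response (0.30 ± 0.10, adjusted p = 0.110). Keap1, given here although the rule did not name it, stood at 0.12 ± 0.08 (adjusted p = 0.423). With sample weights in limma-voom, or without Chow replicate 8 or HFHC replicate 3 in edgeR, 1 regulator was called higher.

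Of 21 tested genes among other NRF2 targets, 2 fell, 1 rose and 18 did not pass, with a median of -0.16. Aox1, the aldehyde oxidase, fell by 0.66 ± 0.11 on the log2 scale (adjusted p = 0.00815) from 124 ± 6.04 to 78.6 ± 11.2 CPM. Cbr1, a carbonyl reductase, fell by 0.49 ± 0.11 (adjusted p = 0.0382), and the efflux pump gene Abcg2 rose by 0.42 ± 0.09 (adjusted p = 0.0229). Without Chow replicate 7, HFHC replicate 1 or HFHC replicate 3, 1 fell and none rose. The counts of Aox1 and Abcg2 were fractional in 5 libraries.

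Of 21 tested glutathione transferases, the family left out of the 10, 8 fell, 2 rose and 11 did not pass, with a median of -0.41. Gsta4 fell by 1.58 ± 0.11 on the log2 scale (adjusted p = 0.000124) and Gstp1 fell by 1.93 ± 0.14 (adjusted p = 0.000147), while Gstt1 rose by 0.58 ± 0.08 and Gstk1 by 0.33 ± 0.09 (adjusted p = 0.00332 and 0.0486). Beside them stand 1 of 10 for the genes described here, and the difference between these lists was not tested. When each library was left out in turn, 7 to 11 transferases fell, the most without Chow replicate 8, and 1 rose each time. The counts of Gstp1 and Gstt1 were fractional in every library, and how reads were divided between them and close copies is uncertain.

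In glutathione synthesis, use and breakdown, apart from Gclc, Gclm and Gsr, 1 of 14 tested genes fell and 1 rose, with a median of 0.00. Cth, which makes cysteine from cystathionine and so feeds Gclc, fell by 1.43 ± 0.22 (adjusted p = 0.00649) from 583 ± 199 to 216 ± 23.6 CPM. Gpx4, the peroxidase of lipid hydroperoxides, rose by 0.35 ± 0.07 (adjusted p = 0.0202). No gene of the list rose without Chow replicate 7 or 9 or HFHC replicate 1 or 2, and 2 rose without Chow replicate 8.

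Of the 14 other thioredoxin system genes, none was called by edgeR, DESeq2 or limma-voom, and 1 had an unadjusted p under 0.05. Their median was -0.03, and Prdx6, a peroxiredoxin that reduces phospholipid peroxides, had the smallest p (0.22 ± 0.09, adjusted p = 0.168). Of NADPH supply, on which Gsr, Txnrd1 and Nqo1 depend, 2 of 8 genes rose and none fell, with a median of 0.26. Me1, the cytosolic malic enzyme, rose by 1.54 ± 0.24 (adjusted p = 0.00774) from 121 ± 44.5 to 353 ± 54.6 CPM, and Pgd of the pentose phosphate pathway by 0.79 ± 0.13 (adjusted p = 0.00830). Both are NRF2 targets in other settings and are also known as genes of fat synthesis.

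**Figure D4:**
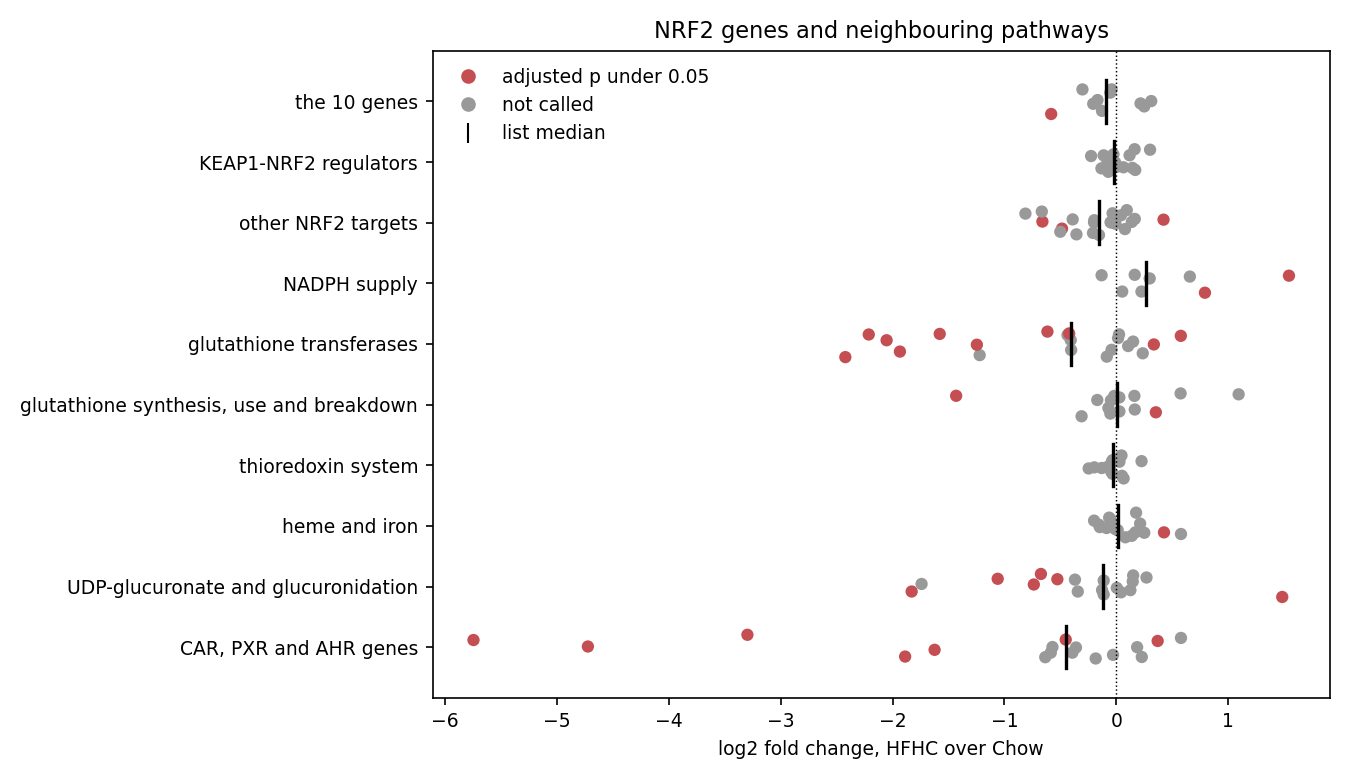
Log2 fold change of HFHC over Chow (horizontal axis) of each tested gene in the 10 genes and 9 neighbouring lists, with called genes in red and the list median as a black bar. The 10 genes lie between -0.58 and 0.31. Called genes in some of the other lists extend further on both sides, from Cyp2b10 at -5.74 to Me1 at 1.54.

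Beside Hmox1, 1 of 17 heme and iron genes rose and none fell (median 0.01). This was Cpox, an enzyme of heme synthesis (0.43 ± 0.10, adjusted p = 0.0406), a count that became 2 when Chow replicate 8 was left out and 0 when any other single library was. The part of the erythroid markers, whose levels are given above, in this difference was not tested. Beside Ugdh, 5 of 18 genes of UDP-glucuronate and glucuronidation fell and 1 rose (median -0.12). Ugt2b35 fell by 1.06 ± 0.10 (adjusted p = 0.000664), Ugt1a9 fell by 1.83 ± 0.16 (adjusted p = 0.000346), and Ugt1a5 rose by 1.48 ± 0.11 (adjusted p = 0.000204). Both Ugt1a genes had fractional counts in every library and share exons, so their levels are uncertain.

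Beside Ephx1, 6 of 17 tested genes of the CAR, PXR and AHR list fell and 1 rose, with a median of -0.45. The receptor genes themselves were not called by edgeR. Nr1i3, which encodes CAR, stood at 0.19 (adjusted p = 0.745), Nr1i2, which encodes PXR, at -0.18 (0.292), and Ahr at -0.36 (0.508). A part of these receptors in the fall of Ephx1 was not tested. Cyp3a11 fell by 4.72 ± 0.32 (adjusted p = 0.000124) and the carboxylesterase Ces2a fell by 1.62 ± 0.10 (adjusted p = 7.99e-05). Ephx2, listed here as the other hepatic hydrolase of epoxides, the soluble form, which acts on fatty acid epoxides, rose by 0.37 ± 0.08 (adjusted p = 0.0288) from 522 ± 31.5 to 674 ± 16.6 CPM. The 2 epoxide hydrolase genes thus moved in opposite directions. Counts were fractional in 5 libraries for Ephx2 and in 6 for Ces2a, and the list had 2 genes called higher when Chow replicate 8 was left out and none when any other single library was.

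With the clock index as covariate, fewer genes of these lists were called. The transferases had 4 lower and none higher, the CAR, PXR and AHR list 4 lower and none higher, and glucuronidation 2 lower and 1 higher. No gene was called among NRF2 regulators, other NRF2 targets, NADPH supply, glutathione synthesis, use and breakdown, the thioredoxin system or heme and iron.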

How the data were processed

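Gene-level read counts of 6 mouse livers were used. STAR 2.7.3a, Partek 9 and the mm10 build are named in the submitters' processing notes. How genes were counted, by which annotation and strand setting, is not given in the sources used here. Expected counts (estimated counts) per gene, not normalized, were deposited by the authors, and 22.4% of them were fractional (tolerance 0.01). Of 20107 rows, 19977 matched GENCODE M21 by coordinates, and ends are printed with 1 base taken off.

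Expected counts were rounded and filtered with filterByExpr (minimum count 10), which left 14896 genes. The diets were compared by the quasi-likelihood test of edgeR 4.0.16 on TMM-scaled libraries (factors 0.971 to 1.02), without covariates, and p-values were adjusted after Benjamini-Hochberg across the tested genes. SE is the log2 fold change divided by the square root of F, and 95% intervals use its t quantile. CPM per kilobase uses the union of exons. 1 read stood for 0.0318 to 0.0379 CPM, and intervals cover the fit's error alone. The code was tested on simulated data. Library measures used exact permutation tests over 20 assignments.

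The members and lists were chosen with earlier results of these data known. Named list genes were up to 2 called in each direction by smallest p, or otherwise the smallest p. Alternatives were DESeq2 1.42.0, limma-voom (limma 3.58.1), other filters and size factors, the 10 most abundant genes left out, a clock covariate, GC and length trends as offsets, a stricter threshold and each library left out. R 4.3.3 and Python 3.11.15 were used.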

Additional observations from a re-analysis of the deposited data

How the results depend on the processing

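Of 18 alternatives, 13 kept the Ephx1 call and 5 lost it, the stricter threshold among them. Its log2 fold change was negative in the 17 that refitted the counts and ran from -0.68 to -0.45 when each library was left out (adjusted p 0.0378 to 0.0996). Of the 10 genes, 8 kept their sign in every alternative. The exceptions were Nqo1, at 0.25 with the clock index and from -0.21 to 0.12 (0.12 without HFHC replicate 1 and without Chow replicate 9) when a library was left out, and Txnrd1, from -0.11 to 0.01 (0.00 without HFHC replicate 3 and 0.00591 without Chow replicate 8). The number of the 10 genes called was 1 as reported. It was 2 with weighted limma-voom, 0 with the clock index, 0 at an adjusted p under 0.01, and 0 to 1 when a library was left out. Over all genes 994 were called as reported, 1494 with weighted limma-voom, 65 with the clock index, 282 at an adjusted p under 0.01, and 361 to 1080 when a library was left out. With upper-quartile factors the calls were 595 higher and 400 lower, against 503 and 491, and with no factors beyond the library total 551 and 383. The difference in the Gclc to Gclm ratio ran from 0.145 to 0.416 when a library was left out. As for Gclm and Ugdh, removal of the GC and length trends made the log2 fold changes of Hmox1 (0.15) and Srxn1 (0.12) smaller. That of Gsr became -0.27 (edgeR, adjusted p = 0.0563), and none of these genes was called. Why these values moved was not tested. Which mice shared a litter is not given and the diets share no replicate numbers, so no paired analysis was possible and litter was not modelled. Nqo1, with 78 to 132 counts per library, had the widest interval.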

Other observations

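Chow replicate 9 held the highest value of 5 of the 10 genes and the lowest of none. Chow replicate 8, the library that stood apart on the second principal component, held the highest value of 1 gene and the lowest of 2. HFHC replicate 3 held the lowest value of 3 genes and the highest of 1. In the pathway lists, 3 genes differed by more than 1 on the log2 scale and did not pass, and they are named here after their values were seen. Ugt2b38, a glucuronosyltransferase, stood at -1.74 ± 0.55 (adjusted p = 0.0975), and Gsta1, a glutathione transferase, at -1.22 ± 0.40 (adjusted p = 0.111). Both have close paralogs, so their levels are uncertain. Chac1, which degrades glutathione, stood at 1.09 ± 0.43 (adjusted p = 0.172).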
